A study of Danio rerio with 12 samples.

Results

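The fatty acid binding protein genes were described in whole zebrafish larvae with and without elmo1. The 10 zebrafish gene names of the family list (fabp1a, fabp1b.1, fabp2, fabp3, fabp6, fabp7a, fabp7b, fabp10a, fabp11a and fabp11b) led to 10 Ensembl gene IDs out of 32520 in the tables. The set was chosen by a measured difference, namely that the FABP7 copy ENSDARG00000034650 was higher in elmo1-/- than in elmo1+/+ larvae, so every difference of a member between genotypes stands here as a description without a test. Names were paired with IDs by symbol, case ignored. The IDs written here as fabp2, fabp3 and fabp6 carry the upper-case name of the orthologue, which belongs to a single member ID each. Another 4 IDs carry an orthologue name that they share with a further copy. These are FABP1 ENSDARG00000059227, FABP1 ENSDARG00000019357, FABP7 ENSDARG00000007697 and FABP7 ENSDARG00000034650. Which FABP1 ID is fabp1a or fabp1b.1, and which FABP7 ID is fabp7a or fabp7b, was not resolved. The names fabp11a and fabp11b are synonyms of fabp4a (ENSDARG00000017299) and fabp4b (ENSDARG00000002311), and the latter names are used here. The other members are fabp2 (ENSDARG00000006427), fabp3 (ENSDARG00000023290), fabp6 (ENSDARG00000044566) and fabp10a (ENSDARG00000038439).

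Total RNA of 12 samples was sequenced, 6 from elmo1+/+ and 6 from elmo1-/- larvae, each a pool of 30 larvae at 120 hours post fertilization (hpf). Both genotypes were on the Tg(fli1:EGFP) background, in which a fli1 promoter drives EGFP in endothelial cells. The elmo1-/- larvae came from a single CRISPR/Cas9 line with a small frameshift insertion in an early exon, so the effect of the allele and that of any variant fixed in the line cannot be told apart. Nothing in the labels ties a sample to a clutch or a day, so the p-values measure the spread between these samples, which may be technical.

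Fatty acid binding proteins are small cytosolic proteins that hold a long chain fatty acid, or for some members a bile acid, inside a barrel of beta strands and carry it between membranes and enzymes. They belong to the same superfamily as the cellular retinol and retinoic acid binding proteins. Members are known for the tissue in which they abound. In fish, fabp10a is a liver protein, whereas FABP1 and FABP2 serve absorptive cells of the gut and FABP6 binds bile acids in the distal gut. FABP3 is the heart and skeletal muscle form of mammals, and FABP7 is the brain form, found in radial glia. The fish genes fabp4a and fabp4b belong with the fat cell and epidermal forms of mammals.

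Expected counts summed to between 20784515 and 21808513 per sample. The elmo1 gene itself was measured with 121.7 to 143 CPM (counts scaled to the normalized library size) across elmo1+/+ samples and 97.1 to 119.7 CPM across elmo1-/- samples. The log2 fold change of elmo1 was -0.26 (SE 0.059, adjusted p = 0.137 by edgeR, 0.111 by limma-voom and 0.00817 by DESeq2). Each SE of a log2 fold change was taken as the size of that change divided by the square root of edgeR's F statistic. All 6 elmo1-/- samples lay below the lowest elmo1+/+ sample in CPM, though a frameshift allele need not lower the RNA. Of the 21830 genes tested, 24 were called higher in elmo1-/- larvae (0.11%) and 27 lower (0.124%) by edgeR's quasi-likelihood test at an adjusted p under 0.05. DESeq2 called 44 and 53, and the higher calls numbered 14 without elmo1-/- sample 4 and 15 without sample 2 or 3. An unadjusted p under 0.05 was found for 1345 genes (6.16%). Since whole larvae were measured, fewer cells of a type and less RNA per cell cannot be told apart in any value below.

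Levels were first compared between members in TPM, the share of all transcripts scaled to a fixed total, which accounts for transcript length. Together the 10 members made up 0.497% to 0.646% of all TPM in the 12 samples. Their summed TPM was 5608 ± 472 (SD, n = 6) in elmo1+/+ and 5654 ± 520 (SD, n = 6) in elmo1-/- larvae, less apart than the samples of either genotype among themselves. The liver gene fabp10a alone supplied 37.8% ± 3.1 of the summed TPM in elmo1+/+ and 36.6% ± 5.4 in elmo1-/- larvae (SD, n = 6 each).

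**Figure D1:**
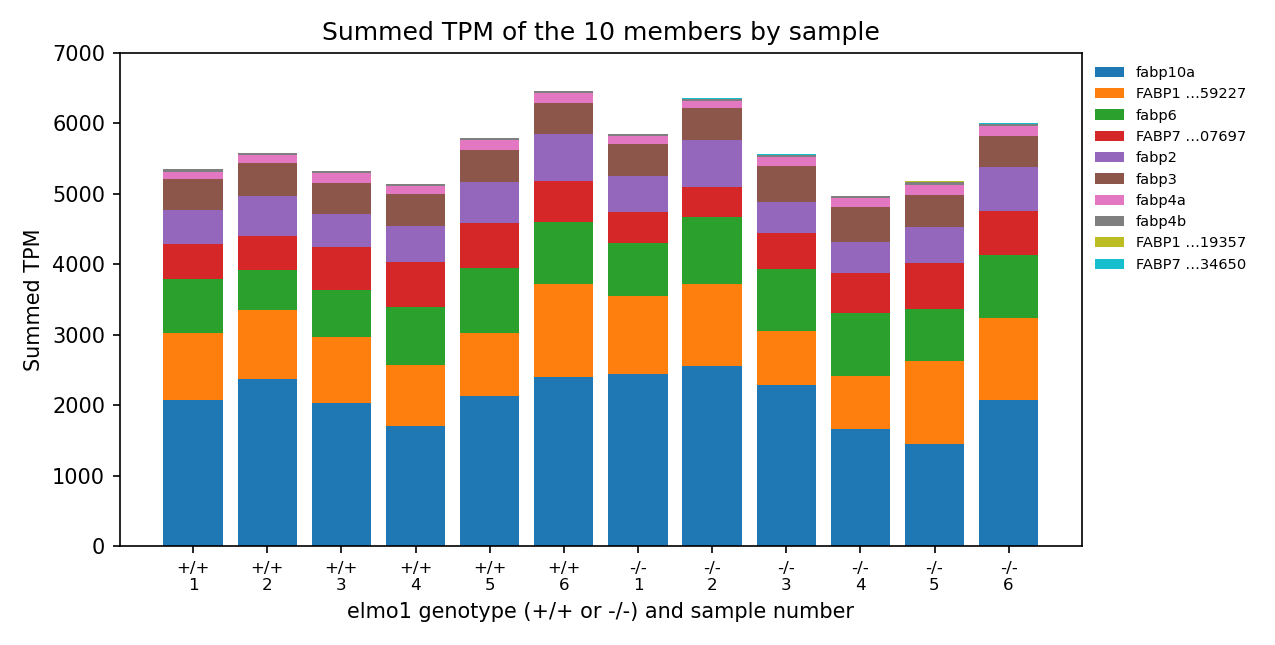
Summed TPM of the 10 members in each of the 12 samples, stacked by gene, with the genotype and sample number on the horizontal axis. The sums lie between 4973 and 6459 in both genotypes, and fabp10a is the tallest segment of every bar.

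In elmo1+/+ larvae fabp10a ranged from 1708 to 2395.5 TPM with a median of 2105, and it ranked 89 among all genes by mean TPM over 12 samples. The gut gene FABP1 ENSDARG00000059227 followed at 865 to 1322 TPM (median 939.85), and fabp6, the bile acid binding form, at 577 to 914 TPM (median 793). Next came FABP7 ENSDARG00000007697, the brain form, at 480.25 to 645 TPM (median 600.3). The second gut gene, fabp2, lay at 465.5 to 659.55 TPM (median 539). By the tissues for which these forms are known, the order of the abundant members was thus liver, gut, gut, brain and gut. No tissue was measured separately, and not every step in this order passed the test below. Below them stood fabp3, the form of muscle in mammals, at 429.8 to 471 TPM (median 447). The fabp4 genes were lower, fabp4a at 106 to 139 TPM (median 125) and fabp4b at 27.8 to 39.2 TPM (median 32.0). These 8 members ranked between 89 and 2566 by mean TPM, and the median of the tested genes was 6.48 TPM.

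The last members were near the detection limit in elmo1+/+ larvae. FABP1 ENSDARG00000019357 had 0 to 4 expected counts per sample there and 1 to 6 in elmo1-/- larvae, which is 0 to 0.565 TPM and 0.135 to 0.855 TPM. It failed the low-count filter, so 9 of the 10 members entered the comparison of genotypes. FABP7 ENSDARG00000034650 had 0 to 3 expected counts in elmo1+/+ larvae. The FABP1 and FABP7 names therefore each cover an abundant gene and one with hardly any reads in elmo1+/+ larvae.

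Among members other than FABP7 ENSDARG00000034650, the order within elmo1+/+ larvae was not used to choose the set, so neighbours in it were compared by a two-sided exact sign-flip permutation test over the 6 samples, with Benjamini-Hochberg adjustment over 9 pairs. The order came from mean TPM in the same 6 samples, so the pairs and their direction were set by the data tested. For 6 pairs the higher member was higher in 6 of 6 samples (exact p = 0.0312, the smallest that 6 samples allow, adjusted p = 0.0469). The ratio was 2.15 for fabp10a over FABP1 ENSDARG00000059227, 1.32 for fabp6 over FABP7 ENSDARG00000007697 and 1.21 for fabp2 over fabp3 (geometric means). It rose to 3.64 for fabp3 over fabp4a and 3.82 for fabp4a over fabp4b, and fabp4b stood above FABP1 ENSDARG00000019357. In elmo1-/- samples fabp2 was above fabp3 in only 4 of 6 (ratio 1.13, exact permutation p = 0.281). The other pairs whose ratio is given above kept their order in 6 of 6 elmo1-/- samples. The remaining neighbours in elmo1+/+ larvae were not shown to differ beyond their spread. FABP1 ENSDARG00000059227 was above fabp6 in 5 of 6 samples (ratio 1.29, exact permutation adjusted p = 0.0804), and FABP7 ENSDARG00000007697 above fabp2 in 4 of 6 (ratio 1.07, exact permutation adjusted p = 0.469). In elmo1-/- samples these counts were 4 of 6 and 3 of 6. The last pair, the scarce copies of FABP1 and FABP7, counted among the 9 but is given without a test, since the low elmo1+/+ level of the FABP7 copy is part of the difference that chose the set. The FABP1 copy was above the FABP7 copy in 4 of 6 samples. By CPM, which leaves transcript length out, fabp2 moved up to second place behind fabp10a and 0 of the 9 pairs passed. As no exact p can be below 0.0312, passing depends on how many of the pairs reach that value. The count of 0 therefore does not show that levels were alike in CPM. For instance, fabp4a had 43.0 to 58.0 CPM and fabp4b 10.5 to 14.9 CPM in elmo1+/+ samples.

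**Figure D2:**
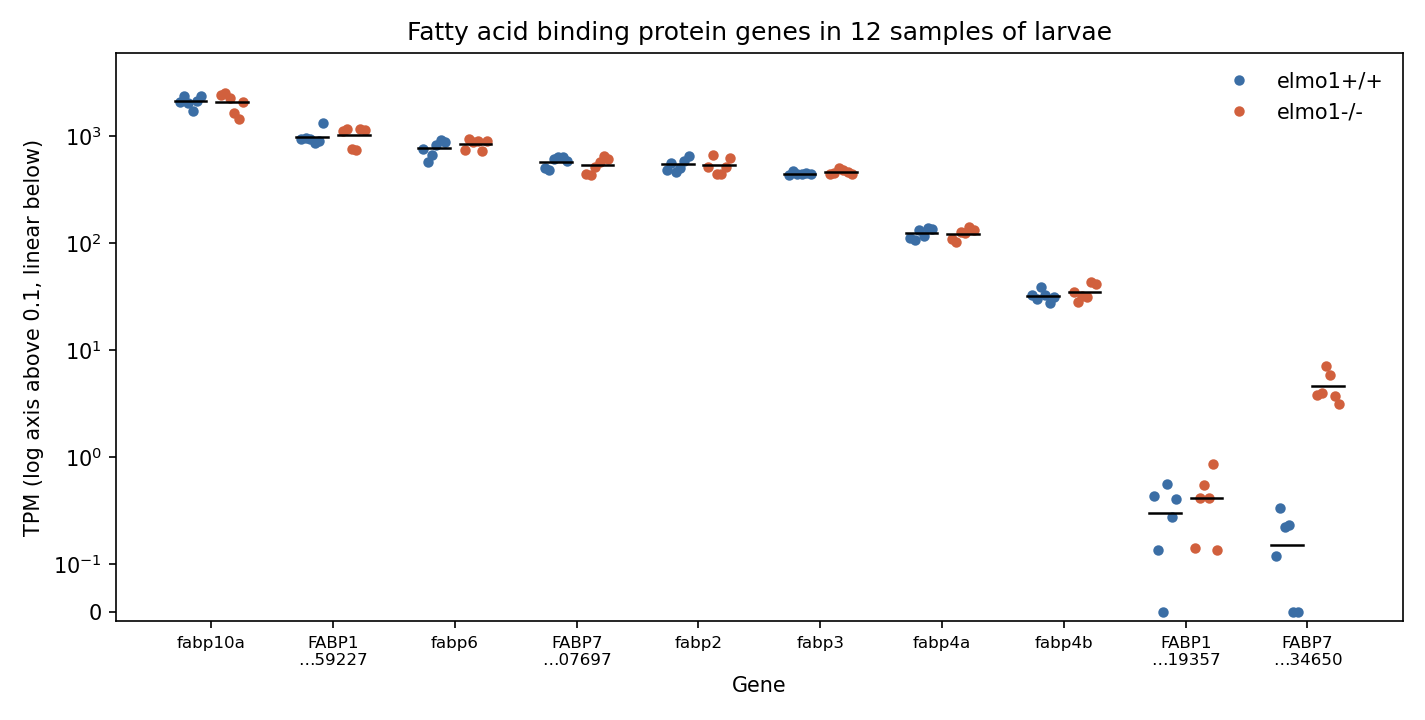
TPM of each member in 6 elmo1+/+ and 6 elmo1-/- samples, on an axis that is logarithmic above 0.1 and linear below. Points are samples and short lines are means; genes stand in the order of their elmo1+/+ means. The genotypes overlap for every member but the FABP7 copy on the right, which lies at 0 to 0.338 TPM in elmo1+/+ and at 3.11 to 7.12 TPM in elmo1-/- samples.

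The comparison of elmo1-/- with elmo1+/+ larvae asks which genes respond when Elmo1 is lost, a scaffold that pairs with Dock exchange factors upstream of the GTPase Rac. Of the 9 members tested, 1 was called, against 0.234% of all genes, and 1 did not overlap between genotypes in CPM, against 0.513% of all genes. Both counts are FABP7 ENSDARG00000034650, the gene by which the set was chosen, so nothing is read from them.

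FABP7 is a lipid carrier of radial glia, the stem and support cells of the larval brain, with a preference for polyunsaturated fatty acids in mammals. The copy ENSDARG00000034650 had 1, 3, 2, 2, 0 and 0 expected counts in elmo1+/+ samples 1 to 6. In elmo1-/- samples 1 to 6 it had 33, 35, 64, 51, 32 and 28. Every elmo1-/- sample thus lay above every elmo1+/+ sample, with sample 3 of elmo1-/- the highest. Over the groups this was 243 against 8 counts, a ratio of 30.7 per total count, given as a description of the difference that chose the set. In CPM the means were 1.95 ± 0.68 in elmo1-/- and 0.062 ± 0.057 in elmo1+/+ larvae (SD, n = 6 each). The fitted log2 fold change was 4.85 (SE 0.42), a value that depends on the prior count because elmo1+/+ samples were at or near 0. The copy passed the low-count filter only through the elmo1-/- group.

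With the highest elmo1+/+ count of this copy as the limit, which was thus set on the copy itself, 2 genes in the tables had at most 3 expected counts in every elmo1+/+ sample and at least 10 in every elmo1-/- sample, this copy and si:dkey-15j16.6. In the opposite direction there were 3 genes, si:ch211-202h22.10, si:dkey-149m13.3 and si:ch211-22k7.1.

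The abundant copy FABP7 ENSDARG00000007697 showed no such difference. It had 208 to 283 CPM in elmo1+/+ (median 269) and 192 to 295 CPM in elmo1-/- samples (median 249.55). The genotypes overlapped over most of their range, and the samples numbered 1 and 2 were the lowest of each genotype. The log2 fold change was -0.05 (SE 0.11). In elmo1-/- larvae the scarce copy stood at 0.504% to 1.39% of the TPM of the abundant copy (mean 0.876% ± 0.322, SD, n = 6), and in elmo1+/+ larvae at no more than 0.0703%. FABP7 transcripts were therefore almost wholly those of ENSDARG00000007697 in both genotypes.

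Related genes can share reads, and the counts were estimates that may divide a read between genes. The expected counts of ENSDARG00000034650 were whole numbers within 0.001 in 12 of 12 samples, and those of ENSDARG00000007697 in 0 of 12. A whole count shows only that the estimate did not divide reads between this ID and another. In RefSeq's GRCz12tu annotation fabp7a and fabp7b lie on chromosomes other than that of elmo1, whereas fabp3 and fabp4a share the chromosome of elmo1. Whether shared reads or variants of the line play a part in the difference was not tested.

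**Figure D3:**
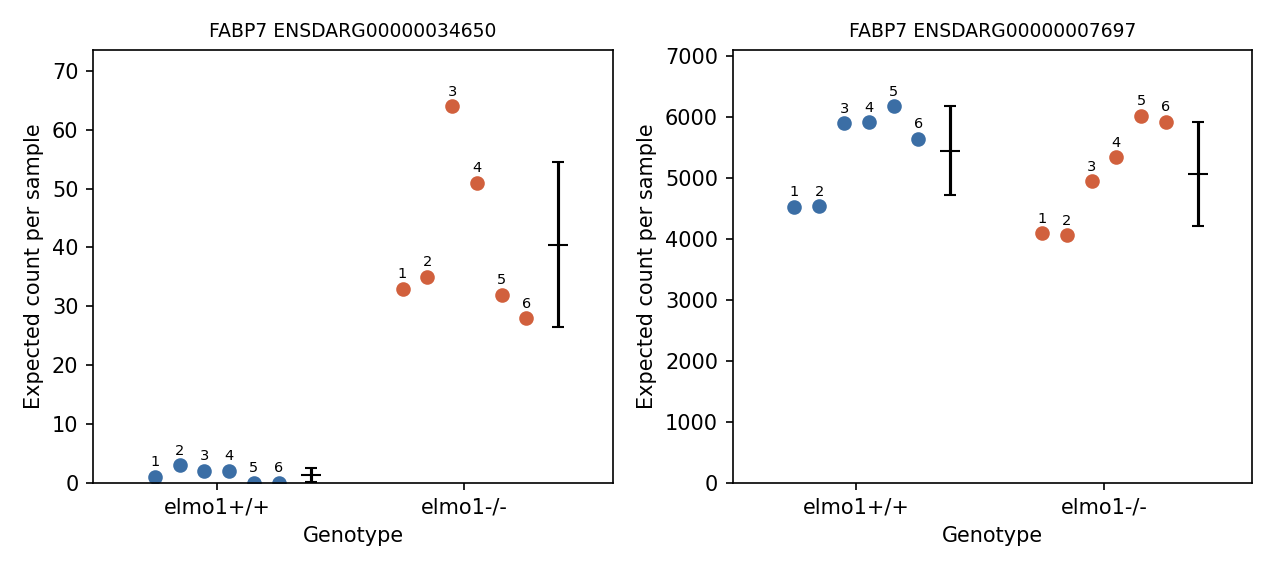
Expected counts per sample of the FABP7 copies, ENSDARG00000034650 on the left and ENSDARG00000007697 on the right, by genotype. Points are samples with their numbers, and bars are the mean ± SD of 6 samples. The left copy is at 0 to 3 counts in elmo1+/+ and at 28 to 64 in elmo1-/- samples, while the right copy overlaps between genotypes.

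Markers of the cells in which FABP7 is known were examined beside it. Among 20 tested radial glia and neural progenitor markers 0 were called by edgeR (0 at an unadjusted p under 0.05, 0 by DESeq2 and 0 by limma-voom), with a median log2 fold change of 0.04 against 0.0043 over all genes. The summed TPM of these markers ran from 1646 to 1954 across elmo1+/+ and from 1726 to 2001.5 across elmo1-/- samples, so the groups overlapped. The glial glutamate transporter SLC1A2 was at 763 ± 96 and 725 ± 65 TPM, and glutamine synthetase GLUL at 209 ± 10 and 201 ± 17 TPM (elmo1+/+ and elmo1-/-, SD, n = 6 each). None of the listed markers was at 0 in all 12 samples. Among 11 neuron markers, 0 were called likewise (0 unadjusted, 0 by DESeq2 and 0 by limma-voom), with sncb, STMN1 and SNAP25 the most abundant.

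The gut and liver members showed no difference between genotypes larger than the spread between samples. FABP1 ENSDARG00000059227 had 222 to 370 CPM in elmo1+/+ (median 242) and 207 to 336 CPM in elmo1-/- samples (median 295). Its groups overlapped, with elmo1+/+ sample 6 the highest of all and elmo1-/- samples 3 and 4 below the others of their group. The log2 fold change was 0.08 (SE 0.14), and leaving out single samples moved it between 0.02 and 0.20.

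For fabp2, an intestinal form thought to carry dietary fatty acids in absorptive cells, the range was 333 to 509 CPM in elmo1+/+ (median 393) and 334 to 515 CPM in elmo1-/- samples (median 368). The ranges nearly coincided, and the log2 fold change was 0.02 (SE 0.13).

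The bile acid binding gene fabp6 had 164 to 255 CPM in elmo1+/+ (median 206) and 190 to 271 CPM in elmo1-/- samples (median 255). Most elmo1-/- samples lay near the top of the elmo1+/+ range, and samples 1 and 5 lay lower. Its log2 fold change of 0.20 (SE 0.12) was the largest among the members other than the scarce FABP7 copy, and still under 2 standard errors.

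The liver gene fabp10a had 349 to 533 CPM in elmo1+/+ (median 432) and 293 to 566 CPM in elmo1-/- samples (median 496). Samples 4 and 5 of elmo1-/- were the lowest of their group, and the log2 fold change was 0.02 (SE 0.14). Its paralogue fabp10b, outside the family list, was scarce at 1.33 to 2.02 CPM in elmo1+/+ and 0.893 to 2.41 CPM in elmo1-/- samples, with a log2 fold change of -0.04 (SE 0.23). A relative of FABP1, fabp1b.2, had no more than 0.334 CPM in any sample.

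The gene fabp3, the form of muscle in mammals, was the steadiest member. It had 201 to 239.8 CPM in elmo1+/+ (median 226) and 217 to 259 CPM in elmo1-/- samples (median 233), and its log2 fold change was 0.07 (SE 0.058). The SE of fabp3 was the smallest among the 9 members, and the SE of the scarce FABP7 copy the largest.

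The gene fabp4a had 43.0 to 58.0 CPM in elmo1+/+ (median 50.7) and 44.0 to 59.8 CPM in elmo1-/- samples (median 54.4), with a log2 fold change of 0.04 (SE 0.096). For fabp4b the values were 10.5 to 14.9 CPM (median 11.98) and 11.3 to 17.1 CPM (median 13.1), with a log2 fold change of 0.17 (SE 0.11). Both overlapped between genotypes. Across the 8 tested members other than the scarce FABP7 copy, log2 fold changes ran from -0.05 to 0.20, beside a median size of 0.071 over all genes tested.

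**Figure D4:**
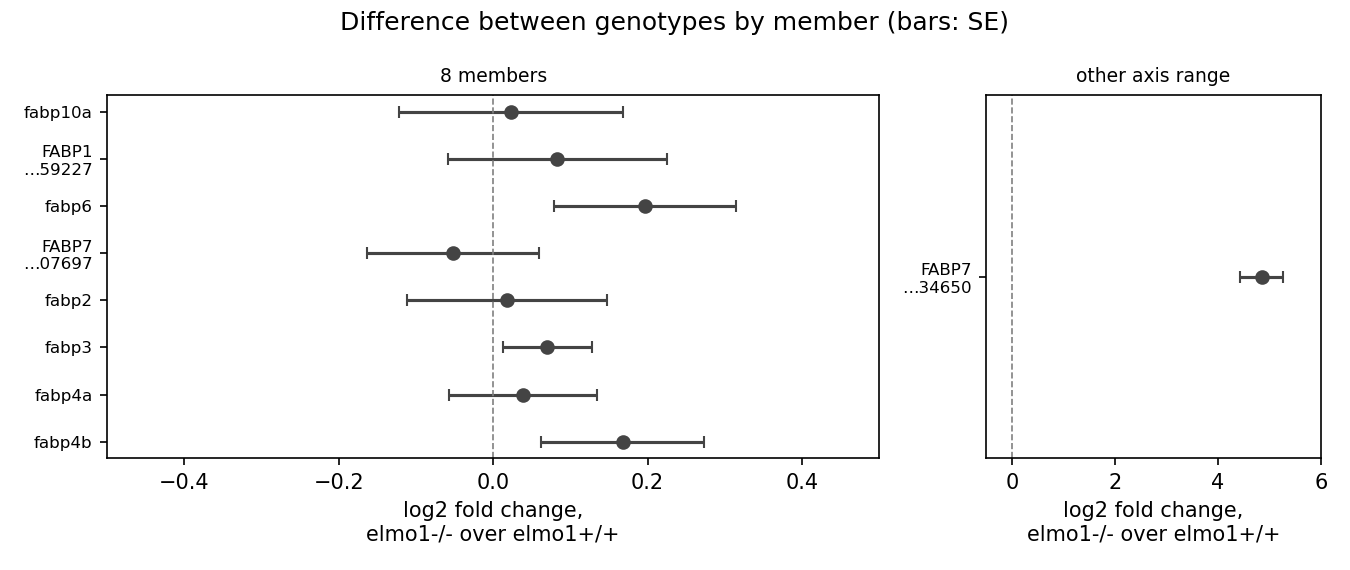
Fitted log2 fold change of each tested member, elmo1-/- over elmo1+/+, with bars of 1 SE derived from the F statistic (edgeR, 6 samples per genotype). The 8 members on the left lie between -0.05 and 0.20; the FABP7 copy ENSDARG00000034650 on the right, at 4.85, has an axis range of its own.

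Independent of genotype, members were compared by how they varied between samples, as deviations of log2 CPM from the genotype mean. There were 8 relations, each with a permutation within genotype and adjustment over the 8. The permutations treat the 12 samples as independent, and the labels do not say whether samples of the same number are related. The gut genes fabp2 and FABP1 ENSDARG00000059227 rose and fell together (r = 0.81, permutation p = 0.00415, adjusted p = 0.0314, n = 12; rho = 0.80, adjusted permutation p = 0.0408). The value was 0.81 within each genotype and 0.68 without the 2 samples farthest from the median. In both genotypes sample 6 lay above the genotype mean for both genes, and samples 3 and 4 below it. If same-numbered samples are related, the p-values of this pair are too small. The third gut gene did not clearly share this variation, since r was 0.51 for fabp2 with fabp6 (permutation p = 0.106, adjusted p = 0.211; rho = 0.45, adjusted permutation p = 0.309; r = 0.27 without the 2 farthest samples). For FABP1 ENSDARG00000059227 with fabp6 it was 0.11 (permutation p = 0.733, adjusted p = 0.837; rho = 0.17, adjusted permutation p = 0.802; r = -0.09 without the 2 farthest).

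The members fabp2 and fabp10a also varied with markers of their tissues by r, though not by rho after adjustment. Each was set against the list of its own tissue only, so whether the relation is particular to that tissue was not tested. Among the 34 relations examined later, fabp2 with fabp10a had r = 0.60 (adjusted permutation p = 0.352). The deviations of fabp2 followed the mean of 23 enterocyte marker genes (r = 0.72, permutation p = 0.0118, adjusted p = 0.0314; rho = 0.69, adjusted permutation p = 0.0863; 0.67 without the 2 farthest samples). Those of fabp10a followed the mean of 16 liver marker genes (r = 0.77, permutation p = 0.00908, adjusted p = 0.0314; rho = 0.66, adjusted permutation p = 0.0863; 0.58 without the 2 farthest). Within genotypes r was 0.49 in elmo1+/+ and 0.85 in elmo1-/- for fabp2, and 0.47 and 0.91 for fabp10a. In both genotypes sample 2 lay above and sample 4 below the genotype mean for fabp2, fabp10a and both marker means. If same-numbered samples are related, the p-values of these relations are too small as well. For fabp3 and striated and heart muscle markers r was 0.16 (permutation p = 0.64, adjusted p = 0.837; rho = 0.10, adjusted permutation p = 0.864; r = 0.40 without the 2 farthest), which fell short of the threshold. The other 2 of the 8 relations concerned the scarce FABP7 copy, whose deviations in elmo1+/+ larvae come from 0 to 3 counts, so nothing is read from them. With radial glia markers r was -0.71 in elmo1+/+ and 0.68 in elmo1-/- samples, and with the abundant FABP7 copy it was -0.44 and -0.05.

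These 3 calls were close to the threshold. Without elmo1+/+ sample 3 or 4 no relation passed, the adjusted permutation p of fabp2 with FABP1 ENSDARG00000059227 then being 0.0549 and 0.0789. Without any of elmo1-/- samples 2 to 6, that relation alone passed, and without elmo1+/+ sample 6 its adjusted permutation p was 0.14. Leaving out elmo1+/+ sample 2 ended the call for fabp10a (adjusted permutation p = 0.0581) and leaving out elmo1+/+ sample 5 that for fabp2 with enterocyte markers (0.0508).

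**Figure D5:**
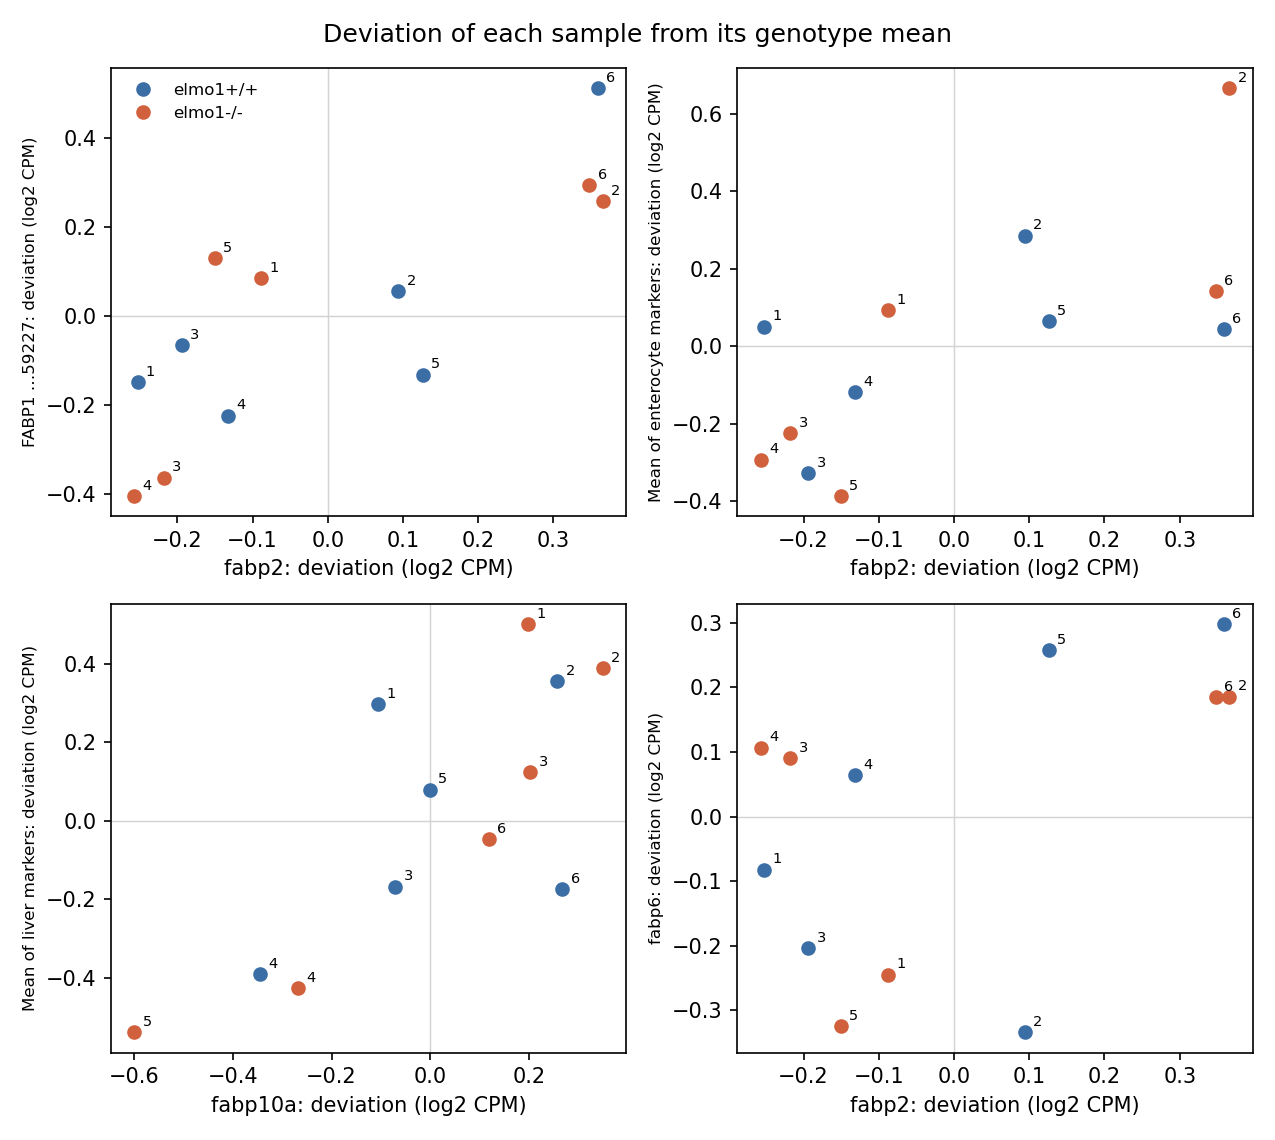
Deviation of each sample from its genotype mean in log2 CPM, for fabp2 against FABP1 ENSDARG00000059227 (r = 0.81), fabp2 against the mean of enterocyte markers (r = 0.72), fabp10a against the mean of liver markers (r = 0.77) and fabp2 against fabp6 (r = 0.51). Points are 12 samples with their numbers, coloured by genotype; in the panel of fabp2 and FABP1, sample 6 of both genotypes and elmo1-/- sample 2 lie at the upper right.

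Enterocyte and liver markers were also compared between genotypes. Of 23 enterocyte markers 0 were called by edgeR (1 at an unadjusted p under 0.05, 0 by DESeq2 and 0 by limma-voom), with a median log2 fold change of 0.12 and a summed TPM between 358 and 579 for elmo1+/+ and between 411 and 845 for elmo1-/- samples. The gut genes ADA, VIL1 (villin) and cldn15la were the most abundant of them, ADA at 93.5 ± 15.6 and 111.9 ± 33.1 TPM (elmo1+/+ and elmo1-/-, SD, n = 6 each). Of 16 liver markers 0 were called (1 unadjusted, 0 by DESeq2 and 0 by limma-voom), with a median of 0.07 and a summed TPM between 1169 and 1729.8 for elmo1+/+ and between 984 and 2132 for elmo1-/- samples. Transferrin, tfa, led that list at 608 ± 115 and 742 ± 204 TPM, followed by serpina1l and serpina1. Both lists overlapped between genotypes, as did fabp2 and fabp10a.

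Of 21 striated and heart muscle markers 1 was called by edgeR, against 0.234% of all genes (1 unadjusted, 1 by DESeq2 and 1 by limma-voom). It was TNNI2 ENSDARG00000013752, a scarce ID among those named for this troponin subunit of fast muscle. It had 3.26 to 3.99 CPM in elmo1+/+ and 4.68 to 7.62 CPM in elmo1-/- samples (log2 fold change 0.70, SE 0.12, edgeR adjusted p = 0.0284). Its mean was 3.21 and 5.10 TPM. With the replicate number as a block in edgeR it was not called (adjusted p = 0.0593). The abundant muscle genes pvalb1, TNNT3 and ckmb were not called, and the median of the list was 0.09. Retina and lens markers, 14 tested and 0 called (0 unadjusted, 0 by DESeq2 and 0 by limma-voom), had a median of 0.07.

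Genes that work beside fatty acid binding proteins were compared in 4 lists. The lists of fatty acid uptake and activation (18 tested), synthesis and storage (24), oxidation and its regulators (23) and bile acid handling (12) held 77 tested genes. Of these 0 were called by edgeR, 0 by DESeq2 and 0 by limma-voom, and 2 had an unadjusted p under 0.05, against 6.16% of all genes tested. Their medians were 0.02, -0.01, 0.0086 and 0.06 on the log2 scale.

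In the uptake list, DBI, which binds acyl-CoA, was at 141 ± 14 TPM in elmo1+/+ and 126 ± 8.1 in elmo1-/- larvae. The fatty acid receptor CD36 was at 67.3 ± 20.7 and 70.5 ± 30.4 TPM, and the acyl-CoA binding gene ACBD7 at 54.8 ± 2.2 and 53.5 ± 5.2 TPM (SD, n = 6 each). Among synthesis and storage genes the most abundant were LPL, the lipase of lipoprotein triglycerides, the desaturase scdb and the elongase ELOVL6. LPL was at 40.4 ± 6.1 and 37.8 ± 8.9 TPM, in the same order of genotypes. Among oxidation genes they were the dehydrogenases ACADM, HADH and ACADVL, with ACADM at 89.6 ± 7.7 and 85.9 ± 2.4 TPM. In bile acid handling they were CYP7A1, which carries out the rate-limiting step of bile acid synthesis, the transporter subunit slc51a and CYP8B1, with CYP7A1 at 21.5 ± 8.7 and 25.2 ± 12.9 TPM. The most abundant gene of each list differed between genotypes by less than 2 SD of either group, which describes the spread of single samples and is no test of the means.

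Retinoid binding relatives, from the same superfamily, were compared as well. Of 10 tested, 0 were called by edgeR (0 unadjusted, 0 by DESeq2 and 0 by limma-voom), with a median of -0.04. The gut form RBP2 led at 337 ± 49 TPM in elmo1+/+ and 341.5 ± 79 in elmo1-/- larvae, and so stood below fabp2 in mean TPM. The others named by abundance were rbp5, at 57.4 ± 4.6 and 53.4 ± 5.9 TPM, and CRABP1, at 26.0 ± 3.4 and 27.7 ± 3.1 TPM (SD, n = 6 each).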

How the data were processed

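Libraries had been made with BGISeq-500 protocols. The deposited values were expected counts per gene, as estimated by kallisto, and TPM calculated by the authors from the same run. Per the labels, the submitters' processing notes named Trim Galore 0.6.4, kallisto 0.4.6 and GRCz11. Between 38.0% and 39.6% of the genes in a sample had a count that was not whole, so counts were rounded. Symbols were found for 29201 of 32520 IDs (89.8%), with RefSeq synonyms for fabp4a and fabp4b. No sequence table was used.

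Genotypes were compared with edgeR 4.0.16 (R 4.3.3; TMM factors, filterByExpr with a minimum count of 10, quasi-likelihood test, Benjamini-Hochberg over 21830 genes). DESeq2 1.42.0 and limma 3.58.1, including log2(TPM + 1) and log2(TPM + 0.1), served as alternatives. CPM was computed from the counts with TMM library sizes, and log2 CPM for correlations had a prior count of 2. Permutation tests were two-sided with SciPy 1.17.1 and NumPy 2.4.6, exact for 6 samples and otherwise with 100000 resamples. In the relations, FABP1 ENSDARG00000059227 stood for fabp1b.1, being the only FABP1 ID past the filter. Same-genotype samples differed beyond counting noise (chi-square per degree of freedom of at least 7.39), so each counted once. Scripts were tested on simulated data.

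The members, lists and tests were chosen with earlier results of these data known. All members were named, and of each other list the called genes and the 3 with the highest mean TPM, except 1 that is not reported here. For fabp10a, fabp2 and ENSDARG00000034650 the 5 genes with a symbol that varied most like them were also named. An orthologue name stood for all its copies.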

Additional observations from a re-analysis of the deposited data

Results flagged for a closer look

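In 3 of 48 groups of 6 values a single sample stood apart from the others by Dixon's criterion, where chance alone gives about 2.4 (1 in 20). FABP1 ENSDARG00000059227 reached 369.71 CPM in sample 6 of elmo1+/+, while the remaining samples of that genotype lay between 222 and 269 CPM. For the fatty acid oxidation genes the summed TPM reached 576.2 in sample 1 of elmo1-/-, while the remaining samples lay between 481 and 509. For the radial glia and neural progenitor markers it reached 2001.5 in sample 5 of elmo1-/-, while the remaining samples lay between 1726 and 1794.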

How the results depend on the processing

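The scarce FABP7 copy ENSDARG00000034650, the gene by which the set was chosen, had log2 fold changes of 4.60 to 5.23 when single samples were left out. Its counts were at most 3 in elmo1+/+ and at least 28 in elmo1-/- samples. No setting could thus be expected to change the direction, and its staying higher in elmo1-/- larvae throughout is no support. On the log2(TPM + 1) scale its log2 fold change was 2.25, since that pseudocount is large beside the TPM of this copy. DESeq2 called 97 genes in place of 51 (44 higher and 53 lower). Requiring 10 counts in every sample left 15 genes higher in elmo1-/-, a filter that removes this copy by construction. With single samples left out 14 to 27 genes were called higher, with 15 without elmo1-/- sample 2, 15 without sample 3 and 14 without sample 4. The order of member levels was the same without any elmo1+/+ sample, but 5 samples allow no p below 0.0625. By CPM 0 neighbouring pairs passed, a count that depends on how many pairs reach the smallest possible p. The number of relations past the threshold ran from 0 to 3 when samples were left out. On the log2(TPM + 1) scale fabp2 with enterocyte markers no longer passed (adjusted permutation p = 0.0681). Relations near 0 changed sign. FABP1 ENSDARG00000059227 with fabp6 was at -0.039 by log2(TPM + 1) and between -0.22 and 0.21 with samples left out, fabp3 with muscle markers was at -0.23 by log2(TPM + 1), and the scarce FABP7 copy with radial glia markers was at 0.070 by log2(TPM + 1), 0.68 in elmo1-/- samples alone (a setting chosen after the data were seen) and between -0.27 and 0.21 with samples left out. The cause was not tested.

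Samples share replicate numbers. Same-numbered samples deviated together with r of 0.14, 0.30, 0.11, 0.16, -0.03 and 0.096 for numbers 1 to 6, so not every r was over 0.1 and the numbers were not taken as pairs. Of the 12 samples, 7 correlated best with their own number, a hint from the data and not from the design. With a replicate block 60 genes were called, 38 of them also without it. The block left the log2 fold change of the scarce FABP7 copy at 4.86 and gave smaller SE for others, such as 0.069 for fabp2 and 0.052 for FABP7 ENSDARG00000007697. TNNI2 was not called with the block (adjusted p = 0.0593).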

Other observations

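The genes whose deviations from the genotype mean were most like those of fabp10a over the 12 samples were cox8b (r = 0.95), zgc:158432, si:dkey-69o16.5, COQ9 and cyp2x9. For fabp2 they were SOD1 (r = 0.92), IDH1, ABHD14B, si:dkey-157o17.2 and HSP90AB1, and for the scarce FABP7 copy ENSDARG00000034650 PRKCE (r = 0.95), DUSP6, KLHL38, ANKRD55 and tsc22d3. These r values are the highest over all tested genes with a symbol and carry no test. They share the libraries and their normalization. For the scarce FABP7 copy the elmo1+/+ deviations come from 0 to 3 counts, so nothing is read from the genes listed for it.

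After the data were seen, 34 relations were examined, the 28 pairs of the 8 members other than the scarce FABP7 copy and 6 relations of FABP7 ENSDARG00000007697 and fabp4a with neural and eye marker lists. The pairs among fabp2, FABP1 ENSDARG00000059227 and fabp6 are also among the 8 relations of the report, and over the 34 relations the pair of fabp2 with FABP1 no longer passed (adjusted permutation p = 0.0722). In 1 of them the adjusted p was under 0.05. FABP7 ENSDARG00000007697, the abundant brain form, varied with fabp4a (r = 0.89, permutation p = 0.00029, adjusted permutation p = 0.00986, n = 12). Spearman's rho was 0.81 (adjusted permutation p = 0.0998), r was 0.83 without the 2 samples farthest from the median, and it was 0.83 within elmo1+/+ and 0.96 within elmo1-/- samples. Samples 1 and 2 of both genotypes were the lowest for both genes, and the permutations treat the 12 samples as independent. With radial glia markers the r of FABP7 ENSDARG00000007697 was 0.03 (adjusted permutation p = 0.959). With neuron markers it was 0.70 (adjusted permutation p = 0.199), and with retina and lens markers 0.15 (adjusted permutation p = 0.861). The r of fabp4a was similar, at 0.15 with radial glia markers (adjusted permutation p = 0.861) and 0.69 with neuron markers (adjusted permutation p = 0.199). With retina and lens markers it was 0.18 (adjusted permutation p = 0.861).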
